A study of Mus musculus with 27 samples.

Results

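The genes described here are 10 members of the Notch pathway: the ligand genes Dll1, Dll3, Dll4, Jag1 and Jag2, the receptor genes Notch1, Notch2 and Notch3, and the target genes Hes1 and Hey1. Each was read from array rows that carry its symbol and no other, and from the row with the highest mean where there were several. All 10 were measured, among 22180 genes named in this way. The samples were prostate tumours of 27 F2 males, 1 array per tumour, all in 1 group, so the spread between animals is the measurement and no treatment or genotype is compared. All 27 males were positive for the TRAMP transgene and came from a cross of C57BL/6-Tg(TRAMP)8247Ng/J with PWK/PhJ. The transgene drives SV40 early genes from the probasin promoter, which is active in prostate epithelium. Per the labels, animals were assessed at 30 weeks or when they reached a humane endpoint, and no age is given per tumour. Tumours are named by animal number, such as P803.

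Notch signalling passes between neighbouring cells. A ligand of the Delta or Jagged type on 1 cell binds a Notch receptor on the next, the receptor is cut by an ADAM protease and then by gamma-secretase, and its freed intracellular domain joins Rbpj and Mastermind proteins in the nucleus to switch on target genes such as Hes1 and Hey1. Hes1 is a repressor that holds back proneural factors, which in turn drive Delta genes, and in many epithelia this circuit separates neuroendocrine from other cells. Notch genes also act in blood vessels, where Dll4 marks sprouting endothelium and Notch3 is a receptor of smooth muscle cells and pericytes, so a piece of tumour can draw its Notch RNA from several cell types. In such bulk samples a change in the number of cells of a type and a change in the RNA per cell cannot be told apart.

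The promoters of Dll1, Dll3, Jag1 and Jag2 are shown because all slopes between ligand genes that passed the adjusted threshold were among them. Jag1 ran opposite to Dll1 and Jag2, and no slope between Jag1 and Dll3 passed. Without the 4 tumours highest in Dll1 none of these slopes passed. The sequences are the 250 bases before the gene start from RefSeq on GRCm38.p6, all 4 on the minus strand and written 5′ to 3′ along the gene. Capitals mark CAGCTG, a form of the E-box that proneural factors bind. The positions are chr17:15376933-15377182 for Dll1, chr7:28301786-28302035 for Dll3, chr2:137116521-137116770 for Jag1 and chr12:112929496-112929745 for Jag2.
Dll1: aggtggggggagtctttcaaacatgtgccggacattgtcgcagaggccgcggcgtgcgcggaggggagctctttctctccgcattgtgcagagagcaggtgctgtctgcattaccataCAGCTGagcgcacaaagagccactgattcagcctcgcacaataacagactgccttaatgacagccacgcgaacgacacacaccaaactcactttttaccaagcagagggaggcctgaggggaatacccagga
Dll3: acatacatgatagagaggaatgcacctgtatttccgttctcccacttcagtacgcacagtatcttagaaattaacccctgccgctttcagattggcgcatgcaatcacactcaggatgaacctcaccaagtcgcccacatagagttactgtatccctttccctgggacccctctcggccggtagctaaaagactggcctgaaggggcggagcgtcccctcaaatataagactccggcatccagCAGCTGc
Jag1: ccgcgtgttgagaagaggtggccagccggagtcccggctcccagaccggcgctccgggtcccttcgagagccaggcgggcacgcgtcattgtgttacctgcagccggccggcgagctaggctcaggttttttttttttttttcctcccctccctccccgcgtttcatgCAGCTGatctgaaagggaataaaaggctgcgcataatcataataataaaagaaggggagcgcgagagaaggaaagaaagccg
Jag2: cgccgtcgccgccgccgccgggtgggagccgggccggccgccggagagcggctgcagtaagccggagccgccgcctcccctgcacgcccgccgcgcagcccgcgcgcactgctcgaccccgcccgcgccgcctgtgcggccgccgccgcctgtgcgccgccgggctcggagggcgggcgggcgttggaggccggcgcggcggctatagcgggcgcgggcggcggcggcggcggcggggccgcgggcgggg
CAGCTG, which reads the same on both strands, was found in 3 of the 8 member promoters listed, at -132 to -127 in Dll1, -7 to -2 in Dll3 and -82 to -77 in Jag1, counted from the gene start. It was in 13.0% of 32851 promoter windows of the same length. TGGGAA, the core of the site that Rbpj binds, was searched on both strands and found in 0 of the 8, against 21.6% of all windows. With no TGGGAA found, there was no overlap of the motifs to describe. Dll1 has a second promoter in the table, and the one at the outer start was used. The other entries searched were Dll4, Notch1, Notch2 and Notch3. Hes1 and Hey1 were not searched.

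The array medians lay between 5.67 and 5.82 log2. With 27 arrays, their number limits how precise the slopes are. Each marker list was turned into a score per tumour, the mean over its measured genes of the log2 level minus that gene's mean over tumours. The neuroendocrine score (17 of 19 genes measured, with Pcsk1, SD 2.02, and Stmn2, 1.61, most variable) was lowest at -2.60 in P471, followed by P966 (-1.88), P425 (-1.81) and P1276 (-1.43). The other 23 tumours lay between -0.18 in P219 and 0.85 in P803, and a mixture model called the 4 and the 23 separate clusters. Among prostate genes, Foxa1 ranged between 7.20 and 11.7 log2. The luminal epithelium score (12 of 14 genes; Cdh1, SD 2.06, and Krt8, 1.97) split into 18 lower and 9 higher tumours, between -1.31 and 2.47.

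Among the ligands, Dll1, the main Delta ligand of developing tissues, had a lowest level of 5.71 log2, a median of 6.43 and a highest of 9.41 (SD 0.93, n = 27). Its 3 lowest values lie under 5.79 log2, the median of all array rows, so its range was at least 13.0-fold. It was 9.41 in P803, 8.80 in P1469, 8.45 in P569 and 7.82 in P500, while the other 23 tumours lay between 5.71 and 7.13, and the mixture model called these separate clusters. The SD of Dll1 exceeded that of 93.8% of all genes, and it was 0.57 when both rows of the gene were averaged. The second row of Dll1 was dimmer (mean 5.26 log2, SD 0.27) and followed the row used with r = 0.68 over 27 tumours. Dll3, a divergent Delta protein known in small cell lung cancer as a neuroendocrine surface antigen, spanned 4.04, 4.70 and 6.07 log2 at its lowest, median and highest (SD 0.50). Dll3 lay under 5.79 log2 in 25 of 27 tumours and was thus near background there, so its 4.09-fold range is a lower bound. P569 (6.07) and P500 (5.90), which were in the higher Dll1 cluster, were the 2 tumours above that level. Dll4, the Delta ligand of sprouting vessels, spanned 6.22, 7.39 and 8.30 log2, a 4.23-fold range (SD 0.63), and was highest in P1218 and P803. A further row that Dll4 shares with Gm14207 was not used.

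The 2 Jagged genes had their extreme tumours in common, on opposite sides. Jag2 was 9.94 log2 in P1469, 9.47 in P803 and 9.24 in P569, and the other 24 tumours lay between 6.71 and 8.75 with a median of 8.05 (SD 0.68 over all 27). Jag1 was 5.74 log2 in P569, 6.44 in P803 and 6.49 in P1469, and the other 24 tumours lay between 7.02 and 8.31 with a median of 7.66 (SD 0.59 over all 27). P803, P1469 and P569 were thus the 3 highest tumours for Dll1 and Jag2 and the 3 lowest for Jag1. Of all 22180 genes, 421 (1.9%) had these tumours as their 3 highest or 3 lowest, 1.42% as the highest and 0.482% as the lowest, against 3 of the 10 Notch genes. The set was chosen after the values were seen, so no test is given. The neuroendocrine genes Chga, Pcsk1 and Celf3 (3 of 17) were also highest in these 3 tumours. So were the luminal gene Epcam (1 of 12) and the endothelial marker Vwf (1 of 11). Stmn2 of the neuroendocrine list went the other way, at 6.25 log2 in P803, 6.81 in P569 and 7.06 in P1469, against a median of 9.20. Hoxb13 of the luminal list was also low, at 5.61 in P569, 6.35 in P803 and 6.83 in P1469, against a median of 8.68. Pcsk1, a prohormone convertase, was 12.1 log2 in P803, 11.1 in P1469 and 11.6 in P569.

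**Figure D1:**
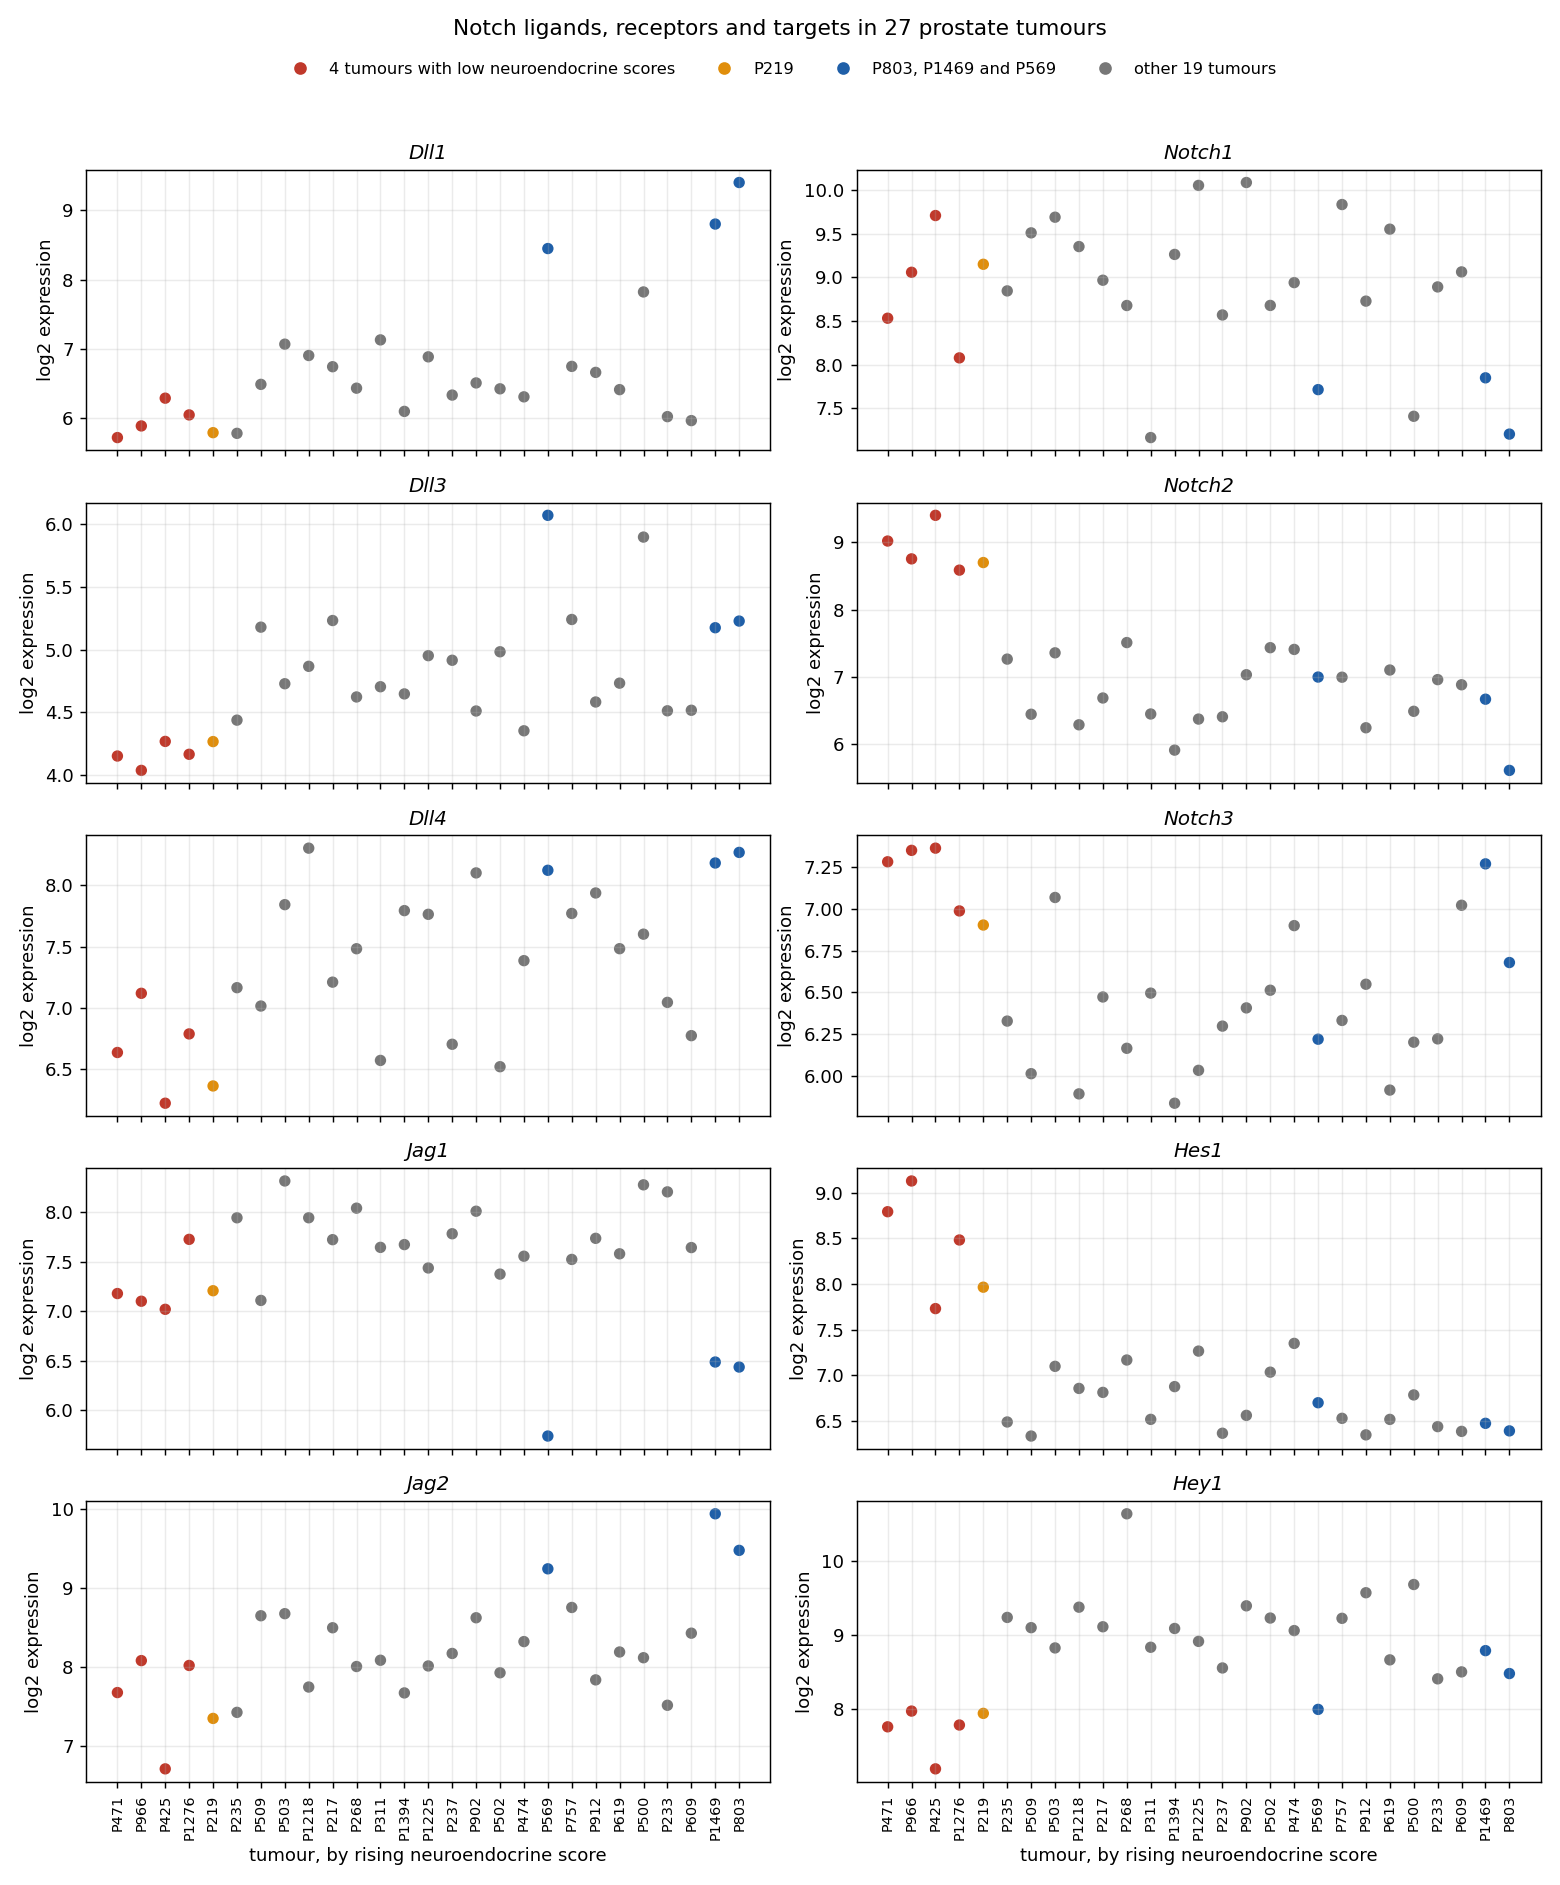
Log2 level of each of the 10 Notch genes (vertical axis) in each of the 27 tumours, 1 point per tumour, ordered by rising neuroendocrine score, with the 4 tumours of the low cluster in red, P219 in orange and P803, P1469 and P569 in blue. Notch2 and Hes1 are highest and Hey1 lowest in P425, P471, P966, P1276 and P219, and Dll1 and Jag2 are highest and Jag1 lowest in P803, P1469 and P569.

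Of the receptors, Notch2 varied most: its lowest, median and highest levels were 5.61, 6.997 and 9.40 log2, a range of at least 13.8-fold since the lowest lies under 5.79 (SD 0.97, above that of 94.5% of genes). It was 9.40 in P425, 9.02 in P471, 8.75 in P966, 8.70 in P219 and 8.59 in P1276, and between 5.61 and 7.51 in the other 22. These 2 ranges do not overlap, and the mixture model called them separate clusters. Notch1 spanned 7.17, 8.94 and 10.1 log2 (SD 0.82). Its 5 lowest tumours were P311 (7.17), P803 (7.21), P500 (7.41), P569 (7.71) and P1469 (7.85), which include the whole higher Dll1 cluster. Notch3 had the narrowest range of the 10 members, with 5.84, 6.47 and 7.36 log2 and a 2.88-fold range (SD 0.48), and its highest tumours were P425, P966 and P471.

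The 2 targets had their extremes in the same tumours as Notch2, on opposite sides. Hes1 spanned 6.34, 6.79 and 9.13 log2 (SD 0.77): it was 9.13 in P966, 8.79 in P471, 8.48 in P1276, 7.97 in P219 and 7.73 in P425, and between 6.34 and 7.35 in the other 22. Hey1, a related repressor, spanned 7.20, 8.84 and 10.6 log2 (SD 0.72). It was 7.20 in P425, 7.76 in P471, 7.79 in P1276, 7.94 in P219 and 7.98 in P966, and between 7.999 and 10.6 in the other 22. The margin for Hey1 is thin, since P569 was at 7.999. The other end was P268 at 10.6, a 10.8-fold range in all. Dll3 was also lowest in these 5 tumours, between 4.04 and 4.27 log2, against 4.35 to 6.07 in the other 22, but all 5 values are close to background.

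P471, P966, P425 and P1276 are the 4 tumours of the low neuroendocrine cluster, and P219 is the next lowest on that score. Of all genes, 678 (3.06%) had exactly these 5 as their highest (1.54%) or lowest (1.51%) tumours, against 4 of the 10 Notch genes. The 5 tumours were picked after the values were seen, so no test is given. The luminal genes Krt19 and Cldn4 (2 of 12) were highest in the same 5. Foxa1 and Hoxb13 of that list were lowest in P471, P966 and P1276. The neuroendocrine genes Insm1, Chga, Scg5 and Celf3 (4 of 17) were lowest in the same 5 tumours. Foxa2 of that list went the other way in P966 (9.46 log2), P1276 (8.99) and P471 (8.79), against a median of 7.49. P219 was above the median for Scg2 (9.52 against 8.40) and Pcsk1 (9.18 against 7.65). Of the other pathway genes, Mfng, a fringe enzyme that modifies the receptors, Numbl, a Numb-like adaptor, and Ctbp1, a corepressor, were lowest there. The fibroblast and matrix score was 1.58 in P471, 1.36 in P966, 1.02 in P1276, 0.43 in P219 and 0.21 in P425, and the smooth muscle and pericyte score was 1.81 in P219 and 1.52 in P425, the 2 highest of all tumours. The part of these cells in the Notch2 and Hes1 levels was not tested.

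Whether Notch genes followed neuroendocrine identity was asked within the 23 tumours of the higher cluster, as a slope in log2 level per SD of the score, tested for all genes with limma and Benjamini-Hochberg adjustment. None of the 10 members passed at 0.05, in a fit that called 7 of 22163 genes (0.0316%). At an unadjusted p below 0.05 there were 5 members and 3183 genes. Dll1 had a slope of 0.56 ± 0.16 (SE, limma adjusted p = 0.132), and Jag2 one of 0.35 ± 0.11 (adjusted p = 0.170). Hes1 (-0.23 ± 0.07, limma adjusted p = 0.175), Notch2 (-0.34 ± 0.11, adjusted p = 0.181) and Notch1 (-0.39 ± 0.16, adjusted p = 0.248) had negative slopes. The median slope was 0.02 over the 10 members and 0.02 over all genes.

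**Figure D2:**
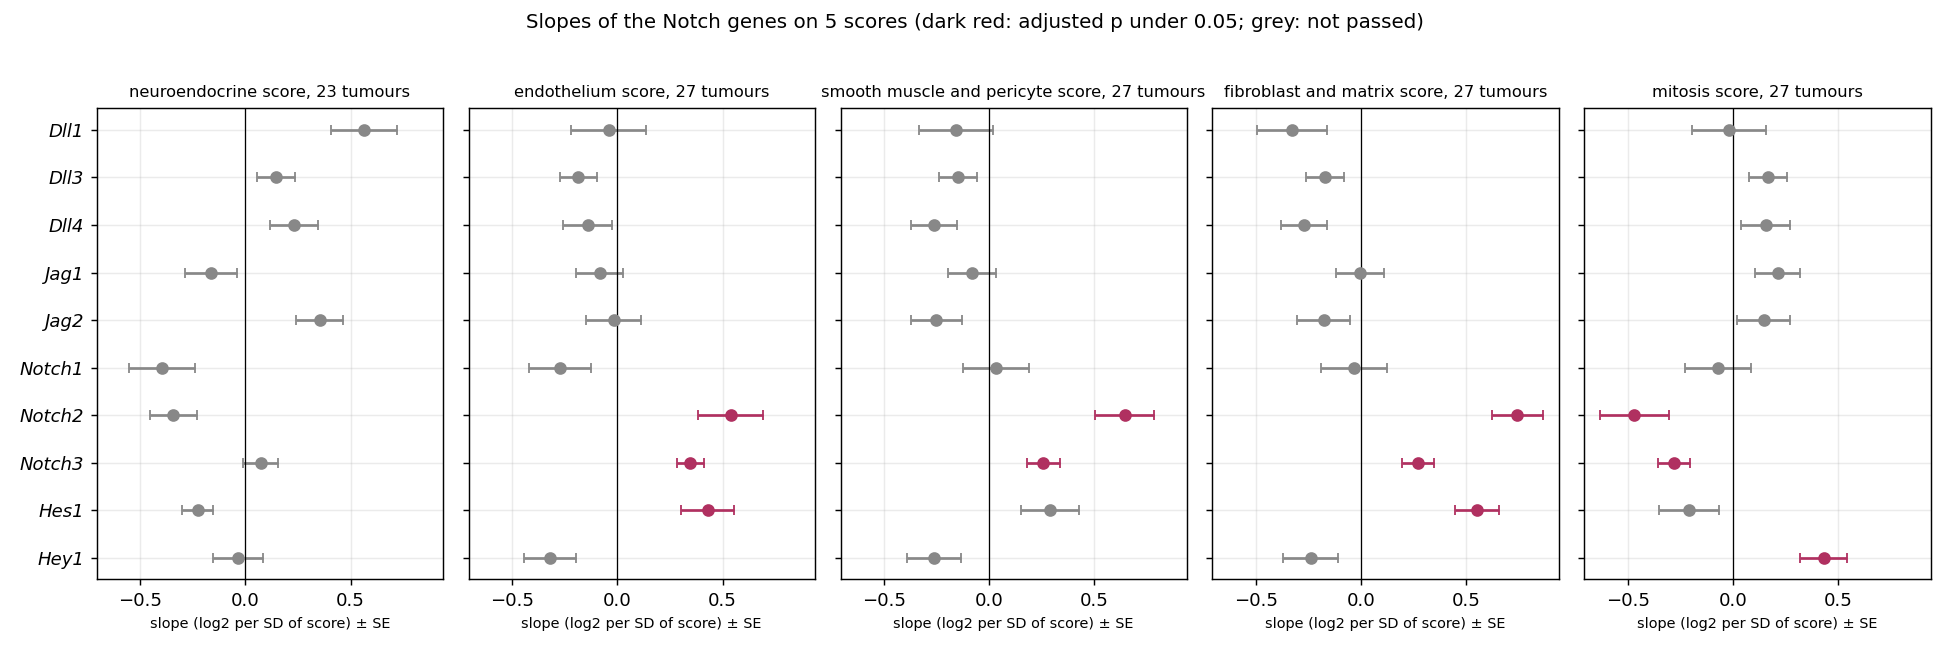
Slope of each Notch gene in log2 per SD of a marker score (horizontal axis) with its standard error, for the neuroendocrine score over 23 tumours and 4 further scores over 27, with dark red points where the adjusted threshold is passed and grey points elsewhere. No member passes for the neuroendocrine score, while Notch2 and Notch3 rise with each of the 3 stromal scores and fall with mitosis over all 27 tumours.

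The luminal score gave no called member either. Within the 18 tumours of the lower luminal cluster 0 of 10 members passed, in a fit calling 10 genes (0.0451%). At an unadjusted p below 0.05 there were 1717 genes and 2 members, Dll3 (0.17 ± 0.08) and Dll1 (0.22 ± 0.10). Within the 9 tumours of the higher luminal cluster limma called 0 of 10 members and 0 genes (0%), with 3078 genes at an unadjusted p below 0.05. The 2 members among these were Hey1 (-0.51 ± 0.12, limma adjusted p = 0.141) and Notch2 (0.79 ± 0.33, adjusted p = 0.326). That fit has the fewest tumours, and its precision is the lowest.

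Scores of the vessel and stromal cells in the samples gave more calls. With the fibroblast and matrix score (9 genes; Dcn, SD 1.31, and Pdgfra, 1.23; between -1.31 and 1.58), 3 of 10 members rose over 27 tumours, where limma called 13.2% of genes with 7.77% rising and 5.39% falling. Notch2 rose by 0.74 ± 0.12 log2 per SD (limma adjusted p = 0.000252), Hes1 by 0.55 ± 0.10 (adjusted p = 0.00107) and Notch3 by 0.27 ± 0.08 (adjusted p = 0.0189). P471, P966 and P1276 of the low neuroendocrine cluster were highest in this score, while P425 of that cluster had 0.21. With the fibroblast and matrix score 11 of 17 neuroendocrine genes fell. Within the 23 tumours of the higher neuroendocrine cluster, Notch2 still rose (0.44 ± 0.10, limma adjusted p = 0.0334), while Hes1 had a slope of 0.16 (adjusted p = 0.600) and Notch3 one of 0.13 (adjusted p = 0.689). Over 27 tumours Notch3 was also not called without P966 (adjusted p = 0.077) or without P471 (adjusted p = 0.086). Of the macrophage genes, 8 of 9 rose with the fibroblast score too, and the part of those cells was not tested.

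With the smooth muscle and pericyte score (10 genes; Cnn1, SD 1.36, and Des, 1.23; between -1.16 and 1.81), 2 members rose, with 9.84% of genes called and 5.93% with a positive slope. These were Notch2 (0.64 ± 0.14, limma adjusted p = 0.00364) and Notch3 (0.26 ± 0.08, adjusted p = 0.0360). Both calls rest on few tumours. Without P425 the slope of Notch2 was 0.49 (limma adjusted p = 0.056) and that of Notch3 0.21 (adjusted p = 0.21), and without P425 and P219 together no member passed. Notch3 also missed the threshold without P619 (adjusted p = 0.064), P1218 (0.054), P509 (0.066) or P1394 (0.075). Within the 23 tumours Notch2 rose by 0.49 ± 0.09 (limma adjusted p = 0.0012), and Notch3 had a slope of 0.21 (adjusted p = 0.11). These 23 include P219, which has the highest score (1.81) and, at 8.70 log2, the highest Notch2 level among them. The slope within the 23 without P219 was not tested.

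With the endothelium score (11 genes; Vwf, SD 1.40, and Cdh5, 0.88; between -1.08 and 0.74), 3 members rose, with 9.43% of genes called with 5.37% rising and 4.06% falling. Notch3 rose by 0.35 ± 0.07 (limma adjusted p = 0.00292), Notch2 by 0.54 ± 0.15 (adjusted p = 0.0281) and Hes1 by 0.43 ± 0.12 (adjusted p = 0.0294). Dll4, the endothelial ligand, had a slope of -0.14 ± 0.12 (limma adjusted p = 0.513). None of the 3 passed within the 23 tumours, where Notch3 had a slope of 0.27 (limma adjusted p = 0.0535), Notch2 of 0.25 (adjusted p = 0.43) and Hes1 of 0.10 (adjusted p = 0.66). Over 27 tumours the calls of Notch2 and Hes1 were lost without P966 (limma adjusted p = 0.062 for each), without P471 (0.095 for Notch2 and 0.11 for Hes1) or without P1276 (0.085 and 0.099), and that of Notch2 without P1394 (0.054). Vwf was highest in P569, P803 and P1469, and with the endothelium score 6 of 12 luminal genes rose and 2, Foxa1 and Hoxb13, fell. Their part was not tested.

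With the mitosis score (10 of 11 genes; Bub1, SD 0.74, and Birc5, 0.69; between -1.85 in P425 and 0.54), limma called 24.1% of genes, 11.6% rising and 12.6% falling. Hey1 rose by 0.43 ± 0.11 (limma adjusted p = 0.00549), Notch3 fell by 0.28 ± 0.08 (adjusted p = 0.00792) and Notch2 fell by 0.47 ± 0.16 (adjusted p = 0.0354). Without P425 the slope of Hey1 was 0.30 (limma adjusted p = 0.085) and that of Notch2 -0.17 (adjusted p = 0.52). Notch2 was also not called without P219 (limma adjusted p = 0.052), P1225, P237 or P500 (0.05 for each). Notch3 kept its call without each tumour in turn and within the 23 tumours (-0.23 ± 0.07, limma adjusted p = 0.040). With the same score 6 of 10 smooth muscle genes and 9 of 12 luminal genes fell and 7 of 17 neuroendocrine genes rose, and the part of those cells was not tested.

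The 10 genes were then used in turn as the predictor of all other genes within the 23 tumours (19 for Dll1, whose higher cluster was left out), with slopes per SD of the predictor. Genes called numbered 4578 for Jag2 (20.6%, with 12.5% rising and 8.18% falling) and 2183 for Jag1 (9.84%, with 4.01% rising and 5.83% falling), against 104 for Dll3 (0.469%, with 0.329% rising), 4 for Dll4 (0.018%) and 0 for Dll1 (0%, with 3298 genes at an unadjusted p below 0.05 in limma). The counts are not of equal footing, since Dll1 over all 23 tumours called 2317 genes, and without P803, P1469, P569 and P500 Jag2 called 1508, Jag1 0 and Dll3 0. Single omissions moved them to 974 for Jag1 without P569, to 17 for Dll3 without P569 (and above 104 without P500), and to 0 for Dll4 without P219 and 69 without P509. Among the receptors they were 817 for Notch2 (3.68%, with 2.98% rising and 0.708% falling), 214 for Notch3 (0.965%) and 41 for Notch1 (0.185%). Among the targets limma called 40 for Hes1 (0.18%) and 0 for Hey1 (0%, with 1632 genes at an unadjusted p below 0.05). Notch1 had 0 genes without P803 and 625 without P311. Notch2 had 32 without P219, Notch3 had 31 without P1394 and 678 without P569, and Hes1 had 1 without P219 and 319 without P1225. With composition scores as covariates Notch1, Notch2, Notch3 and Hes1 had 0.

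With Jag2 and Jag1 as predictors, neuroendocrine genes passed in each direction, in fits that called 20.6% and 9.84% of all genes. With Jag2, 7 of 17 passed: Foxa2, a forkhead factor of neuroendocrine prostate cells (0.72 ± 0.13, limma adjusted p = 0.000807), Chga, the granin chromogranin A (0.44 ± 0.08, adjusted p = 0.00126), Celf3 (0.32 ± 0.07) and Pcsk1 (1.08 ± 0.34) rose. Scg3, another granin (-0.24 ± 0.06), Stmn2, a neuronal microtubule protein (-0.81 ± 0.25), and the adhesion gene Ncam1 (-0.20 ± 0.07, limma adjusted p = 0.049) fell. With Jag1, 6 of 17 passed in the other direction: Ncam1 (0.28 ± 0.06, limma adjusted p = 0.00486), Scg3 (0.23 ± 0.06) and Stmn2 (0.87 ± 0.24) rose, and Foxa2 (-0.65 ± 0.14, adjusted p = 0.00533), Celf3 (-0.30 ± 0.08) and Pcsk1 (-1.17 ± 0.33) fell. Luminal genes moved with them: with Jag1 7 of 12 fell and Hoxb13 rose, and with Jag2 Cldn7, Elf3 and Krt8 rose and Hoxb13 fell. The part of epithelial differences was not tested.

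Without P803, P1469, P569 and P500, the higher Dll1 cluster, none of the 17 neuroendocrine genes passed for Jag1 or Jag2. The slope of Foxa2 on Jag2 was then 0.14 and on Jag1 0.02, and that of Pcsk1 was -0.03 on Jag2 and -0.05 on Jag1. Leaving out single tumours gave between 1 and 7 genes for Jag1, with 3 without P803, 2 without P1469 and 1 without P569, and between 4 and 7 for Jag2, with 4 without P803 and 4 without P569. Ncam1 on Jag2, close to the threshold, had limma adjusted p = 0.25 without P803 and 0.13 without P569. Its call did not hold in 18 of 23 single omissions, nor after centring or quantile normalization, without a trend or with composition scores as covariates. Pcsk1 on Jag2 had limma adjusted p = 0.063 without P235. The call of Pcsk1 also did not hold without P803, P1469 or P569, or with composition scores as covariates.

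**Figure D3:**
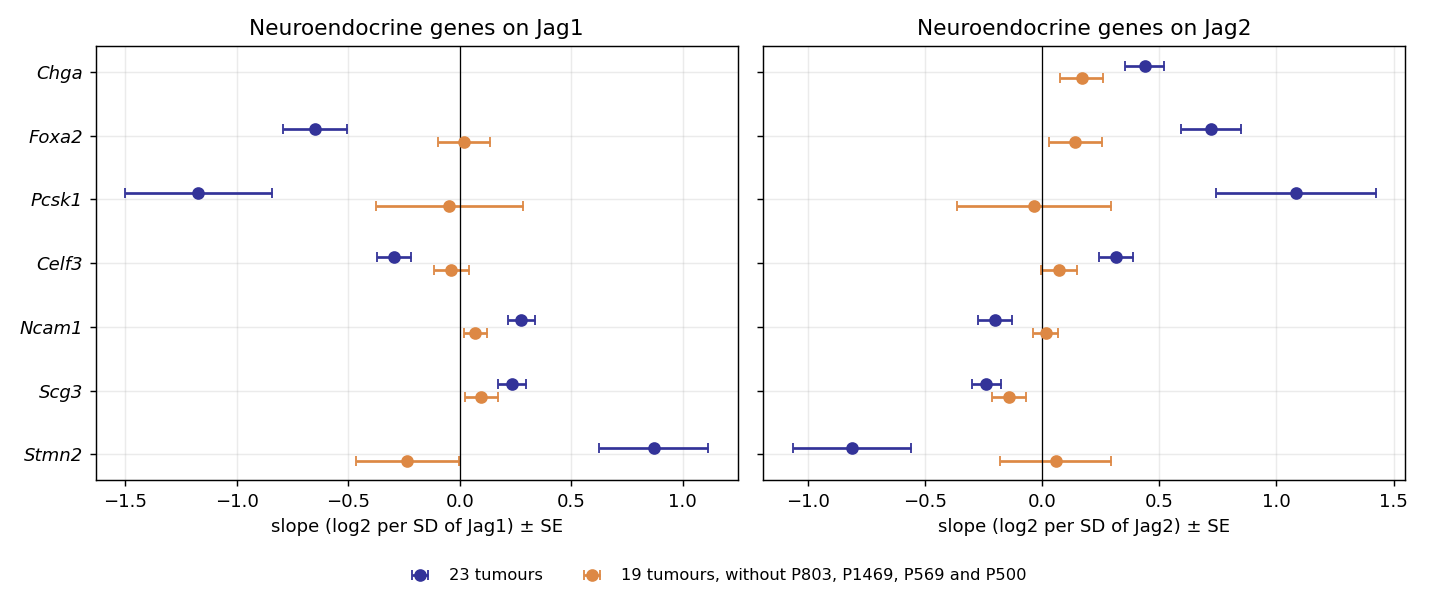
Slopes of 7 neuroendocrine genes in log2 per SD of Jag1 (left) and of Jag2 (right) with standard errors, over 23 tumours in blue and over 19 without P803, P1469, P569 and P500 in orange; each gene is shown where it passed over the 23. In blue, Foxa2, Celf3 and Pcsk1 lie below 0 for Jag1 and above 0 for Jag2 and Ncam1, Scg3 and Stmn2 the other way round, and the orange slopes lie nearer 0.

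Of the other predictors, Notch2 had 1 neuroendocrine gene past the threshold. Insm1, a zinc finger factor of neuroendocrine cells, fell with it (-0.28 ± 0.07, limma adjusted p = 0.0349), and without P219 its slope was -0.22 (adjusted p = 0.28). The call was also lost without P1225 (0.052), P474 (0.054), P502 (0.062), P268 (0.064), P1394 (0.057) or P803 (0.05). The remaining 7 predictors had 0 of 17 in limma, with 3 genes at an unadjusted p below 0.05 for Dll1, 5 for Dll3, 4 for Dll4, 9 for Notch1, 5 for Notch3, 5 for Hes1 and 1 for Hey1. Over all genes these numbered 3298 for Dll1, 2786 for Dll3, 3961 for Dll4, 3049 for Notch1, 4258 for Notch3, 2833 for Hes1 and 1632 for Hey1, of 22179. Without P311, 3 neuroendocrine genes passed for Notch1, and without P500, 2 passed for Dll3.

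Between members, Dll1 rose with Jag2 (0.75 ± 0.12 log2 per SD, limma adjusted p = 0.00042) and with Dll3 (0.66 ± 0.14, adjusted p = 0.0311) and fell with Jag1 (-0.59 ± 0.15, adjusted p = 0.0156). Dll3 rose with Jag2 (0.25 ± 0.08, limma adjusted p = 0.0291), and Jag2 fell with Jag1 (-0.41 ± 0.10, adjusted p = 0.0133). The levels of Dll1 in these fits span its 2 clusters. Without the 4 tumours of the higher cluster, Dll1 had slopes of 0.20 on Jag2 (limma adjusted p = 0.12), 0.22 on Dll3 (adjusted p = 0.32) and 0.05 on Jag1 (adjusted p = 1), and Dll3 on Jag2 had 0.15 (adjusted p = 0.12). Jag2 on Jag1 was not called either, since no gene passed for Jag1 without these 4 tumours. Dll1 on Jag2 kept its call without each tumour in turn. Dll1 on Dll3 was not called without P569 (limma adjusted p = 0.20), P235 (0.06) or P474 (0.05), and Dll3 on Jag2 not without P569 (0.089), P235 (0.053) or P219 (0.052). On Jag1, neither Dll1 nor Jag2 was called without P803 (0.093 and 0.062), P1469 (0.073 and 0.071) or P569 (0.085 and 0.051). Hes1 rose with Notch2 (0.26 ± 0.07, limma adjusted p = 0.0349). Without P219, the highest of the 23 tumours for both, the slope was 0.12 (adjusted p = 0.59), and the call was also lost without P912 (0.054), P237 (0.050), P509 (0.051), P474 (0.054), P502 (0.055) or P268 (0.057).

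**Figure D4:**
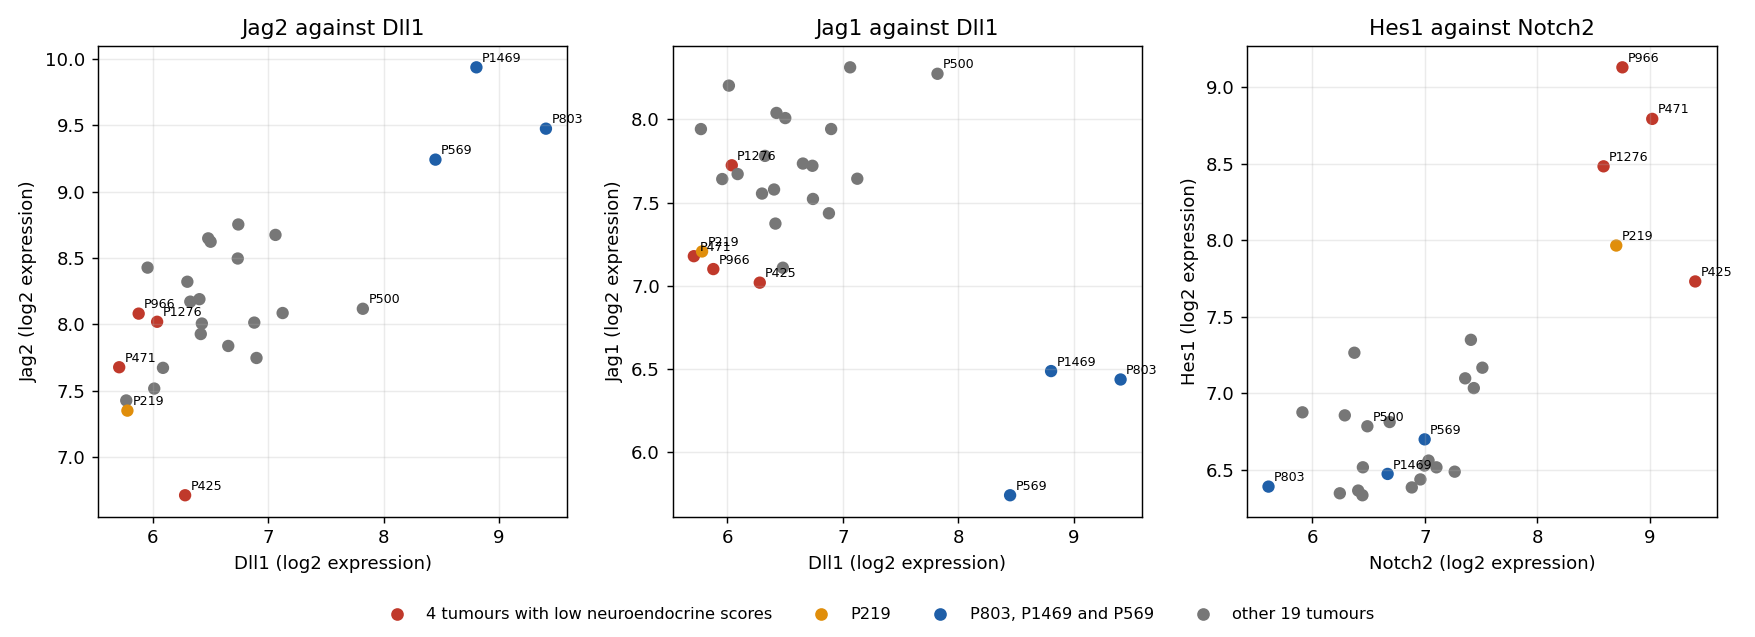
Pairs of Notch genes across the 27 tumours, log2 level on each axis and 1 point per tumour, with the 4 tumours of the low neuroendocrine cluster in red, P219 in orange and P803, P1469 and P569 in blue. The blue points stand apart in the Jag2 and Jag1 panels, P500 has Jag2 and Jag1 levels within the range of the grey points, and P219 stands beside the low neuroendocrine tumours for Notch2 and Hes1.

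Stromal markers moved with Notch2 and Notch3 within the 23 tumours. With Notch2, 6 of 10 smooth muscle genes rose, among them Des (0.91 ± 0.16, limma adjusted p = 0.00331) and Cnn1 (0.80 ± 0.16, adjusted p = 0.00684), as did 4 of 9 macrophage genes, 3 of 6 T and NK cell genes, 2 of 9 fibroblast genes and 1 of 11 endothelial genes. With Notch3, 2 of 11 endothelial genes rose, Tie1 and Esam, and 1 of 10 smooth muscle and pericyte genes, the pericyte receptor Pdgfrb (0.48 ± 0.08, limma adjusted p = 0.0149). The part of these cells in the 2 receptors' levels was not tested. Only 32 genes were called for Notch2 without P219, against 817 with it, and 31 for Notch3 without P1394, against 214 with it.

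The other genes of the pathway were read from the same fits, with lists of 4 of 4 further ligands and receptors, 10 of 10 glycosylation and endocytosis genes, 7 of 8 cleavage genes, 9 of 10 nuclear complex genes and 12 of 12 further targets measured. With the neuroendocrine score and both luminal fits, 0 genes passed in each list. The largest slopes on the neuroendocrine score were those of Dner (0.24 ± 0.14) and Dlk2 (0.03 ± 0.09), Mfng (0.29 ± 0.12) and Neurl1a (0.20 ± 0.12), Aph1b (0.18 ± 0.06) and Psen2 (0.13 ± 0.09), Hdac1 (0.18 ± 0.05) and Maml2 (-0.15 ± 0.06), and Hes6 (0.28 ± 0.19) and Hes5 (-0.22 ± 0.23).

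With the endothelium, smooth muscle and fibroblast scores, Mfng was the only fringe gene of 3 to pass, and 2 of 4 further ligands and receptors fell in each fit. Over all genes limma called 9.43% with endothelium (4.06% falling), 9.84% with smooth muscle (5.93% rising, the rest falling) and 13.2% with fibroblast (5.39% falling). Mfng fell with the endothelium (-0.53 ± 0.13), smooth muscle (-0.52 ± 0.13) and fibroblast (-0.59 ± 0.12, limma adjusted p = 0.00154) scores. Hes5, a target related to Hes1, fell with the same 3 (-0.83 ± 0.18, -0.66 ± 0.20 and -0.65 ± 0.20). Hes5 spanned 6.17 to 10.1 log2, a 15.3-fold range. Of the further ligands and receptors, Dlk1 and Dlk2 fell with endothelium, Dlk1 and Dner with smooth muscle, and Dlk2 and Dner (-0.70 ± 0.15) with fibroblast. Of the cleavage genes, the proteases Adam10 (0.27 ± 0.05, limma adjusted p = 0.000969) and Adam17 (0.20 ± 0.06) rose with fibroblast, and the presenilin gene Psen2 with endothelium (0.30 ± 0.07) and smooth muscle (0.26 ± 0.07). Numb, an endocytic inhibitor of the receptors, rose with endothelium (0.30 ± 0.08) and fibroblast (0.28 ± 0.08), and Numbl fell with fibroblast (-0.27 ± 0.07). In the nucleus, Maml2 rose with fibroblast (0.35 ± 0.08), Ctbp1 fell with endothelium and fibroblast, and Maml3 fell with endothelium (-0.29 ± 0.08). Dtx1, a Deltex gene, fell with endothelium and fibroblast, and Dtx3 with fibroblast. These slopes are over all tumours and so span the clusters of the neuroendocrine score. Within its higher cluster the endothelium score called 76 genes, against 2091, and the fibroblast score 154, against 2918. The smooth muscle score called 1141 there, against 2181 over all tumours, but 14 without P425 and P219. Mfng, Numbl and Ctbp1 were lowest in the lower cluster and P219. Whether single pathway genes kept their calls in these runs is not reported here.

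With mitosis, the nuclear partner Rbpj (0.26 ± 0.06, limma adjusted p = 0.00333) and Poglut1, which puts glucose on the receptors (0.26 ± 0.05, adjusted p = 0.000659), rose. Dtx1 (0.34 ± 0.11) and Dtx3 (0.28 ± 0.09) rose with it too. Of the 7 cleavage genes 3 fell, all of gamma-secretase: Psen2 (-0.31 ± 0.07, limma adjusted p = 0.00152), Ncstn (-0.21 ± 0.06) and Aph1a (-0.15 ± 0.04). Numb (-0.24 ± 0.09) and Dtx4 (-0.25 ± 0.07) fell as well. These slopes too are over all tumours, where the mitosis score called 5350 genes. It called 1687 within the higher neuroendocrine cluster and 3099 without P425 and P219. Whether these pathway genes kept their calls in those runs is not reported here.

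With single members as predictors, 11 of 42 pathway genes passed for Jag2 (26.2%, against 20.6% of all genes) and 4 for Jag1 (9.52%, against 9.84%), shares near those of all genes. Without the 4 tumours high in Dll1 no gene passed for Jag1 or Dll3, so the calls given here for those 2 predictors were lost. Hes6, a Hes protein known to counter Hes1, rose with Jag2 (0.62 ± 0.15, limma adjusted p = 0.00686) and with Dll4 (0.74 ± 0.13, adjusted p = 0.0343). The call with Dll4 was lost without P219, without the 2 tumours farthest on Dll4, and with animal number or composition scores as covariates, where no gene passed. Lfng, the lunatic fringe enzyme, rose with Jag2 (0.39 ± 0.10) and fell with Jag1 (-0.46 ± 0.09, limma adjusted p = 0.00266). Rbpj fell with Jag2 (-0.26 ± 0.06) and rose with Jag1 (0.23 ± 0.07). Numb rose with Jag2 and fell with Jag1. Neurl1a, an E3 ligase of ligand uptake, rose with Dll3, whose own level is near background (0.49 ± 0.08, limma adjusted p = 0.00616), and with Jag2 (0.32 ± 0.11). Also past the threshold with Jag2 were Rfng, Aph1b, Snw1, Hdac1 and Ctbp1, which rose, and Maml2, which fell, and Aph1a fell with Jag1. Mfng (-0.45 ± 0.09, limma adjusted p = 0.00744) and Dner (-0.44 ± 0.12) fell with Notch2 while Maml2 rose, and Psen2 rose with Notch3 (0.28 ± 0.07). With composition scores as covariates no gene passed for Notch2 or Notch3.

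The genes most like each member were ranked by Pearson's r over the 23 tumours, whose values come from 1 table processed by the authors, as a description with no test. Dll1 was most like Slc35d3, Vil1 and Mak (r = 0.93 for each) and most opposite to Cnn3 (-0.88), Lrrn1 and Tcf4. Without P803 and P1469, the 2 tumours farthest from its median, r with Slc35d3 was 0.86 and with Cnn3 -0.79. P569 and P500 of the higher Dll1 cluster remained, so these r values still span both clusters. Within the 19 tumours of the lower cluster limma called 0 genes on Dll1. Dll3 was most like Pld1 (0.85), Ankrd13d and Stk33 and opposite to Hsd17b4 (-0.83), Fam3c and Epha8. Dll4 was most like Spef1l (0.77), Hes6 (0.76) and Olfr654, which lies near background, and opposite to Akr1a1 (-0.85), Kcnk5 and Ap3b1. Jag1 was most like Shc3 (0.86), Chsy1 and Gins1 and opposite to Krt80 (-0.87), Zfp839 and Rph3al, and without P569 and P803 r was 0.68 with Shc3 and -0.67 with Krt80. For Jag2, r with Pgs1 was 0.90, and 0.91 without P1469 and P803, and r with Odr4 was -0.91, and -0.90 without them. Mak, Stk33, Spef1l and Zfp839 also had mean levels under 5.79 log2, the median of all array rows.

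Among receptors, Notch1 was most like Cmtm7 (r = 0.79), Plcl1 and Mir18 and opposite to Dusp16 (-0.80), Pclo and Entpd5. Notch2 was most like Anxa3 (0.88), Cxcl16 and Tmem45a and opposite to Cbfa2t2 (-0.85), Ppp1r17 and Cetn4. Notch3 was most like Zfp459 (0.80), Elfn1 and Heatr5a and opposite to Alms1 (-0.84), Sik3 and Lbr. Among targets, Hes1 was most like Rnase1 (0.79), Plcd3 and Ccbe1, but without P219 and P474 its r with Rnase1 was 0.46. On the other side it was opposite to Cnrip1 (-0.84), Atp6v0e2 and Aplp1, and -0.72 with Cnrip1 without those tumours. Hey1 had the weakest likeness of the 10 members, with Map6 (0.72), Has2 and Spag16 and, opposite, Trim72 (-0.69), Osbpl7 and Ccser1. Zfp459, Rnase1, Spag16, Ccbe1 and Mir18 had mean levels under 5.79 log2 and were thus near background.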

How the data were processed

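Total RNA of 27 snap-frozen prostate tumours was labelled with biotin for GeneChip arrays, 1 per tumour, per the labels. The values used are log2 levels that the authors computed and deposited, in 41345 rows. Partek is the tool named, per the submitters' processing notes, with its version, background correction and scaling between arrays not given in the sources used here. Arrays hold no read depth. The values were used as deposited. Rows were named through GEO's platform annotation: 23521 had 1 symbol, 1814 several and 16010 are unnamed here. Some genes of the lists are not reported here.

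Slopes per SD of a list score or of a Notch gene were fitted over all genes with limma 3.58.1 (eBayes with a trend) in R 4.3.3, without the scored list's genes, with Benjamini-Hochberg adjustment at 0.05. There were 7 fits on scores and 10 on Notch genes, and p was adjusted within each fit. Separate clusters were called with mclust 6.1.1 (BIC difference over 6, Ashman's D over 2, at least 3 tumours in the smaller), and a cluster needed at least 6 tumours for a fit. On simulated data with a slope of 0.5 the neuroendocrine fit (23 tumours, 22180 genes) recovered 74% of changed genes with 9 false calls. The luminal fit of 9 tumours recovered 42%. On the real values the neuroendocrine fit called 7 genes, and Dll1, whose slope was above 0.5, was not among them. Nothing in the labels says that tumours were sampled more than once.

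The 10 members and the lists were chosen with earlier results of these data known. Named are the members, the 3 genes most like and most opposite to each by r, the pathway and neuroendocrine genes past the threshold plus the 2 largest slopes per list on the neuroendocrine score, and the 2 marker genes of largest SD per list. Other marker genes named were chosen after their values were seen. Alternatives were centring, quantile normalization, filters, other row rules, covariates and leaving out tumours. The fits of stromal and mitosis scores within 23 tumours, and those without P425 and P219, without P219 or without the higher Dll1 cluster, were chosen after seeing the data.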

Additional observations from a re-analysis of the deposited data

How the results depend on the processing

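Under centring, quantile normalization and the mean over rows, the SDs of 9 members moved little, and that of Dll1 was 0.57 with the mean over its rows, against 0.93. Counts of members called on the neuroendocrine score (0) became 8 when all 27 tumours were pooled over the clusters, beside 5082 of 22163 genes. Those on the luminal score (0 in each cluster) became 5, beside 6923 of 22168 genes. Without the 2 tumours farthest on the score, members called numbered 1 for endothelium, 0 for smooth muscle, 1 for fibroblast and 1 for mitosis. Over all genes these runs called 695, 14, 221 and 1528, in that order. Within the 23 tumours members called numbered 0, 1, 1 and 1, beside 76, 1141, 154 and 1687 of all genes. Without P425 and P219 members called were 0 for smooth muscle and 1 for mitosis, beside 14 and 3099 of all genes. Leaving out each tumour gave 1 to 4 for endothelium, 0 to 2 for smooth muscle, 2 to 3 for fibroblast, 1 to 3 for mitosis and 0 to 0 for the neuroendocrine and luminal fits. The calls of Notch2 on fibroblast and of Notch3 on mitosis held in every alternative run.

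Pooled over all 27 tumours, neuroendocrine genes called, of 17, were 3 for Dll1, 5 for Dll3, 2 for Dll4, 2 for Jag1, 3 for Jag2, 12 for Notch2, 11 for Notch3, 14 for Hes1 and 10 for Hey1. Over all 22179 genes the same fits called 868, 682, 326, 1641, 1148, 5562, 5492, 4895 and 3823, in that order. These fits span the separate clusters of the neuroendocrine score. With all 23 tumours Dll1 had 6 neuroendocrine genes, against 2317 of all genes. Without the 2 tumours farthest on the predictor Jag1, Jag2 and Notch2 had 0, beside 0, 1986 and 8 of all genes. Without the 4 tumours high in Dll1 they had 0, 0 and 4, beside 0, 1508 and 1791 of all genes. Notch2 also had 0 under quantile normalization, with animal number or composition scores as covariates, and without P219. Leaving out each tumour gave 0 to 2 for Dll3, 1 to 7 for Jag1, 4 to 7 for Jag2, 0 to 3 for Notch1, 0 to 2 for Notch2 and 0 to 0 for the other 5. Slopes that changed sign without the 4 tumours were those of Dll1 (0.0521), Foxa2 (0.0174) and Stmn2 (-0.23) on Jag1 and of Ncam1 (0.0159), Pcsk1 (-0.0345) and Stmn2 (0.0584) on Jag2, and over all 27 tumours those of Ncam1 (0.26) and Scg3 (0.38) on Jag2. The cause was not tested.

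Counts over all genes also moved. The neuroendocrine fit called 7 genes, against 81 after centring, 117 after quantile normalization, 95 after scaling the list's genes, 14 without low genes, 2 with animal number, 4 without a trend, 0 without the 2 farthest tumours, with composition scores or without the transcription factors, and 5082 over all 27 tumours. The luminal fit of 18 tumours called 10 genes, against 0 without the 2 farthest tumours or with composition scores, 1 with animal number and 4 after centring, and that of 9 tumours 0 genes, against 34 without low genes and 116 after scaling. Pooled, the luminal score called 6923. Without the 2 farthest tumours and within the 23 tumours, endothelium called 695 and 76 genes (2091 in all 27), smooth muscle 14 and 1141 (2181), fibroblast 221 and 154 (2918) and mitosis 1528 and 1687 (5350), and without P425 and P219 mitosis called 3099. Dll1 as predictor called 2317 genes over all 23 tumours, against 0. Single omissions gave 540 genes for endothelium and 1108 for fibroblast (without P471), 593 for smooth muscle and 2296 for mitosis (without P425), and 0 to 43 for the neuroendocrine and 1 to 15 for the 18-tumour luminal fit. No paired analysis was possible because all tumours are in 1 group. Low values near background, as for Dll3, limit what the arrays can show.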
